A study of Arabidopsis thaliana with 12 samples.

Results

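In the roots of 6-day-old Arabidopsis seedlings, 79 genes were lower in myb36-1 than in the wild type in sorted endodermal cells and higher in myb36-1 than in the wild type in whole roots. They include 5 of the 6 genes whose proteins carry the Root cap domain, 4 xyloglucan endotransglucosylase/hydrolases (XTHs), extensins, arabinogalactan and SKU5-like wall proteins, peroxidases, pectin enzymes, and a pair of root cap genes, BRN2 and PASPA3. They were chosen from raw counts turned into CPM (counts scaled to the library total, so that levels compare between libraries). A gene was kept when its wild-type sorted mean was at least 5 CPM, its mutant sorted mean was at most 0.4 of that, and all 3 mutant libraries lay below all 3 wild-type ones. In whole roots its mutant mean had to be at least 5 CPM and at least 1.5 times the wild-type mean, with all 3 mutant libraries above all 3 wild-type ones. Of 33602 loci, 81 (0.241%) met these limits, and 2 of them were left out by the choice itself. Since the members were chosen by these genotype differences, those differences are given below as a description, with no test.

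The study measured RNA in 12 libraries, 3 per group: wild-type Col-0 and myb36-1, each as whole root and as endodermis, grown on plates with sucrose under long days. Whole roots were frozen directly, while endodermal cells were released as protoplasts and collected by fluorescence-activated sorting, so tissue, protoplasting and RNA kit cannot be told apart. Seedlings were 6 days old in all groups, and the labels name the replicates as biological without saying whether plants were pooled. The sources used here do not give the reporter used for sorting or the nature of the myb36-1 allele. MYB36 was at 181 ± 62.5 CPM (SD, n = 3) in wild-type and 124 ± 60.8 in mutant sorted cells, which did not pass edgeR's quasi-likelihood test (adjusted p = 0.27). In whole roots it fell by 0.84 on the log2 scale (adjusted p = 0.0025, edgeR), from 35.1 ± 2.09 to 19.4 ± 1.89 CPM, so the transcript was still counted in the mutant.

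In the endodermis the transcription factor MYB36 switches on genes for the Casparian strip, the lignified wall band that seals the space between endodermal cells. The root cap covers the growing tip, and its outer cells are shed or die in a programmed way. Root hairs are outgrowths of epidermal cells whose walls are loosened and rebuilt as they elongate. Many wall enzymes, extensins and peroxidases are known from root hairs, the cap or both.

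Sorted libraries held 17721913 to 24274637 counts in the wild type and 7280556 to 13427477 in myb36-1, and whole-root libraries 19812171 to 22722091. The mutant sorted libraries were the shallowest and also the most variable, with Spearman correlations across loci of 0.918 to 0.928 against 0.974 to 0.983 within the other groups. Of 10 endodermis and Casparian strip genes, 7 fell and 2 rose in mutant sorted cells, and 8 fell in mutant whole roots (edgeR, adjusted p below 0.05). In mutant whole roots 2.85% of all genes tested were called lower, and in mutant sorted cells 12.9% were called lower and 15.6% higher. Summed xylem markers stood at 4.57 to 10.7 CPM in sorted cells and at 389 to 597 CPM in whole roots, and phloem markers at 0.521 to 5.08 and 42.2 to 53.9. Of the stele markers, PHO1 had means of 2.39 and 2.02 CPM in wild-type and mutant sorted cells against 317 and 287 in whole roots, whereas SHR was at 38.2 and 40.1 against 38.1 in both. SKOR was at 0.249 and 0.473 CPM in sorted cells. In whole roots SKOR fell from 40.3 ± 7.48 to 14.9 ± 1.22 CPM (log2 difference -1.41, adjusted p = 0.00065, edgeR). The pair of cortex markers summed to 0.305 to 1.03 CPM in wild-type and 6.18 to 15.4 in mutant sorted cells, and to 2.53 to 5.57 and 4.14 to 10.5 in whole roots. AED3 carried most of the sorted difference, with means of 0.335 and 8.91 CPM. CO2, with means of 0.335 and 0.742 CPM in sorted cells, was too low to be tested. In bulk RNA, fewer cells of a type and less RNA per cell cannot be told apart, and this holds for every level below.

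The summed level of the 79 members was 5383, 6264 and 5756 CPM in the wild-type sorted libraries and 614, 638 and 1000 CPM in the mutant sorted ones. In whole roots it was 2157, 2201 and 1996 CPM in the wild type and 4054, 4324 and 4486 CPM in the mutant. The mutant level was thus 12.9% of the wild type in sorted cells and 2.02-fold of it in whole roots. Median log2 differences between mutant and wild type were -2.64 in sorted cells, with a range of -6.50 to -1.36, and 0.88 in whole roots, with a range of 0.60 to 3.08. Over all 12548 loci that met both level limits the medians were -0.10 and -0.00. The wild-type mean was over 10 times the mutant mean in sorted cells for 27 members, whereas in whole roots the mutant mean reached 2 times the wild-type mean in 26 and 3 times in 9.

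**Figure D1:**
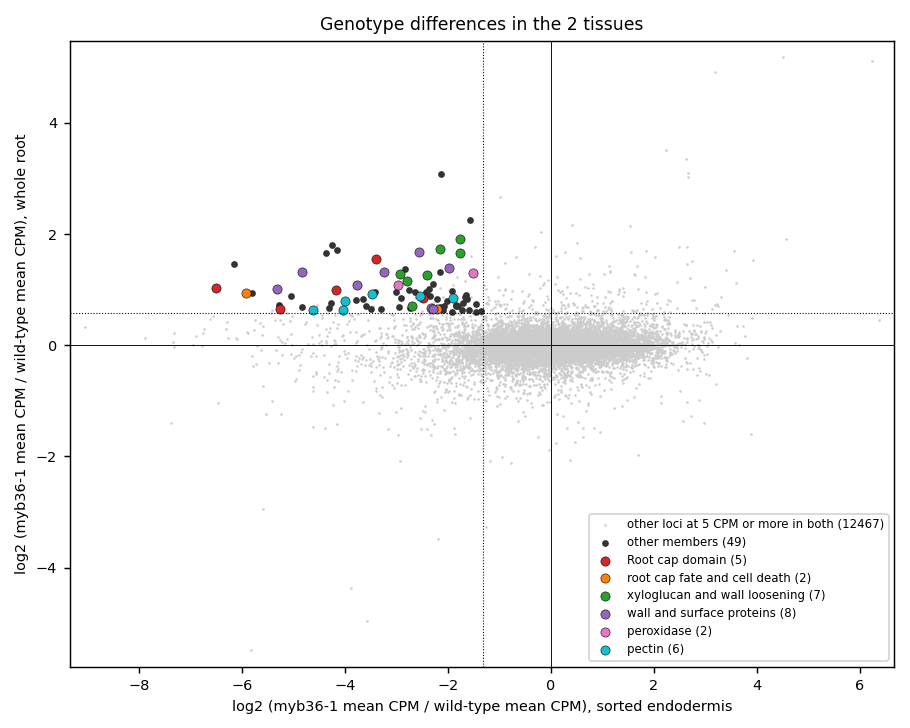
Each point is a locus with a mean of at least 5 CPM both in sorted wild-type cells and in whole mutant roots; the axes give log2 of the mutant over the wild-type mean CPM, in sorted endodermis (x) and in whole root (y), and the dotted lines mark the limits of 0.4 and 1.5. Members, coloured by group, occupy the upper left corner by choice, down to -6.50 in sorted cells and up to 3.08 in whole roots on the log2 scale.

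With edgeR run on all genes, 62 of the 79 members were called lower in mutant sorted cells, where 12.9% of the 18318 genes tested were called lower, and 67 were called higher in mutant whole roots, where 3.25% of 19624 were called higher. Both calls were made for 52 members. These counts come from the contrasts that chose the members, so nothing is read from them. Members not called lower in sorted cells included AT4G34419, XTH33, AT4G35210, AT3G02620 and AT3G49960, and AT1G54890 was called in neither tissue. In whole roots the count dropped to 37 when wild-type replicate 3 was left out, to 42, 39 and 36 when mutant replicate 1, 2 or 3 was, and to 4 in one fit of all 12 libraries.

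The limits cut through a continuum of values. Just inside the endodermal limit lay RALFL34, with a mutant mean at 0.391 of the wild type, and AT4G34880 and AT1G67760, both at 0.363. Just outside lay AT5G45580 at 0.404, ACO1 at 0.418 and SSL2 at 0.420. On the whole-root side GATA9 and AT4G34880 were at 1.52 and RALFL34 at 1.54, while AT2G43480, AT2G30230 and AT3G47400 stopped at 1.49. Loci that missed only the limit on the endodermal fall numbered 18, and those that missed only the limit on the whole-root rise numbered 109. Without wild-type whole-root replicate 2, 127 loci would have met all limits, 76 of them members. Of the 1572 loci (4.68%) that met the endodermal limits, 5.15% also met those in whole roots, and of the 492 (1.46%) that met the whole-root limits, 16.5% also met the endodermal ones.

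Promoter sequences were read for all members, and those of the 4 members on the root hair wall and growth list are shown. The root hair element is a short motif known from promoters of root hair genes. These 4 show both cases, present and absent, of a core string taken from it. The windows are the 250 bases before the annotated gene start (RefSeq, TAIR10.1, whose nuclear coordinates match the TAIR10 positions of the files), given on the strand of the gene. Capitals mark a match to this core, TGNNNNCACG or TGNNNNNCACG, on either strand. The core allows any base in the spacer, so a match to it need not be a match to the full element, which was not searched. The windows lie at chr5:26894528-26894777 on the plus strand for RHS19, and on the minus strand at chr5:2037856-2038105 for AT5G06630, chr5:23301690-23301939 for XTH12 and chr5:23304096-23304345 for XTH13.
RHS19: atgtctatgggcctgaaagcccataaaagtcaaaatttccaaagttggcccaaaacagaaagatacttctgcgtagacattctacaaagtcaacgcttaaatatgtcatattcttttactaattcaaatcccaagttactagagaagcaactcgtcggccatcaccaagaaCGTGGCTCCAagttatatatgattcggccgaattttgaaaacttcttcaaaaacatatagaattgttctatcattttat
AT5G06630: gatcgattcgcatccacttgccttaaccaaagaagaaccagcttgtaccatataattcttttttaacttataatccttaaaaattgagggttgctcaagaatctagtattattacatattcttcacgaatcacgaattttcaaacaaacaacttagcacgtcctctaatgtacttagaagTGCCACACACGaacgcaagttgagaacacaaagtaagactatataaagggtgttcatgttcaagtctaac
XTH12: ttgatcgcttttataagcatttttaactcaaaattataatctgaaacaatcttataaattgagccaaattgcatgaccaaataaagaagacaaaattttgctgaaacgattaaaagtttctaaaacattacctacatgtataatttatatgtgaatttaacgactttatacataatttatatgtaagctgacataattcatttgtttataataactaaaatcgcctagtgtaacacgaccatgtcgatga
XTH13: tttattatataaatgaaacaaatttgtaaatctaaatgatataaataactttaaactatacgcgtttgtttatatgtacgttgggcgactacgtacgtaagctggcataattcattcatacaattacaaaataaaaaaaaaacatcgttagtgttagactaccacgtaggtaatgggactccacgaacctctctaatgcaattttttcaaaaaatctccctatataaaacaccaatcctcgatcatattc

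A match started 79 bases before the gene start in RHS19 and 70 bases before it in AT5G06630, and there was none in these windows of XTH12 and XTH13. A core of either spacing was found in 12 of the 79 members (15.2%), in 9.59% of the 12310 protein-coding loci that met both level limits and in 9.10% of all 26699 promoters. Besides RHS19 and AT5G06630 the 12 were CYP702A2, AT4G35210, AT2G17280, PPa3, AT3G53650, ZFP5, AT4G17940, AT5G15265, TRM10 and BRN2. The W-box core TTGAC, a motif bound by WRKY factors, was in 49 members (62.0%) against 45.3% and 45.0% of the same backgrounds. The G-box CACGTG was in 6.33% of members and 7.74% and 6.58% of the backgrounds, and the auxin response element TGTCTC in 12.7%, 10.1% and 10.9%. Both strands were searched, motifs may overlap (the CACG of the root hair element is also part of a G-box), and a match is a string of letters, not a known site.

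Members with the Root cap domain, and the root cap genes PASPA3 and BRN2, differed in how much remained in mutant sorted cells. The level left was 1.11% of the wild-type mean in AT5G60530, the lowest of all members, and 1.66% in PASPA3. It was 17.8% in AT1G54890 and 21.7% in BRN2. The domain alone does not place a gene's expression in the cap. The table held 6 loci whose proteins carry the Root cap domain, a domain named after root cap proteins, and 5 of them were members. AT5G60530 (chr5:24333907-24335858, minus strand) was at 345, 444 and 448 CPM in wild-type sorted cells and at 7.89, 4.83 and 0.961 CPM in mutant ones. In whole roots it was at 38.4, 39.7 and 27.6 CPM in the wild type and 88.6, 49.9 and 76.6 in the mutant. This 90.4-fold fall was the deepest of the 79, and the whole-root libraries of the mutant were spread but all above the wild type.

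AT5G60520 (chr5:24331670-24333144, minus strand), its neighbour 762 bases away, was at 203, 237 and 233 against 8.49, 8.89 and 20.1 CPM in wild-type and mutant sorted cells. It was at 32.4, 20.6 and 27.3 against 56.9, 55.9 and 46.5 CPM in wild-type and mutant whole roots. The groups were far apart in sorted cells and closer, without overlap, in whole roots. AT3G19430 (chr3:6736061-6738518, minus strand) was at 63.5, 94.5 and 112 CPM in wild-type sorted cells, at 16.1, 7.49 and 2.06 in mutant sorted cells, at 28.9, 35.6 and 27.8 in wild-type whole roots and at 112, 64.7 and 95.5 in mutant whole roots. Mutant whole roots thereby reached the level of wild-type sorted cells. The other members with the domain were AT4G27400 (59.2 ± 10.3 to 1.54 ± 0.533 CPM in sorted cells, 15.7 ± 2.27 to 24.6 ± 1.72 in whole roots) and AT1G54890 (43.4 ± 9.99 to 7.73 ± 9.36 and 14.8 ± 5.63 to 26.6 ± 1.11). AT5G54370, the sixth locus, went from 1493 to 68.4 CPM in sorted cells and from 372 to 522 in whole roots, and it missed only the rise limit, with a log2 difference of 0.49.

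PASPA3 (AT4G04460, chr4:2224422-2227874, plus strand), an aspartic protease that marks cells undergoing developmental death, was at 68.7, 68.8 and 88.9 CPM in wild-type sorted cells and at 2.46, 1.02 and 0.275 in mutant ones. In whole roots it was at 26.7, 53.5 and 48.0 in the wild type and at 74.7, 88.4 and 83.3 in the mutant. It nearly vanished from sorted cells, and in whole roots wild-type replicate 1 was well below the other two. BRN2 (NAC070, chr4:6415120-6416961, minus strand), a NAC factor of root cap maturation, was at 7.12, 8.73 and 13.1 against 0.894, 1.14 and 4.26 CPM in sorted cells, and at 5.11, 4.97 and 4.59 against 7.67, 7.82 and 7.61 in whole roots. Its whole-root libraries agreed closely within each genotype.

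Of a list of 7 root cap genes that holds these 2 members, 6 fell in mutant sorted cells, and 2 rose in mutant whole roots, both of them members (edgeR, adjusted p below 0.05). Over all genes tested, 12.9% fell in sorted cells and 3.25% rose in whole roots. None of the 7 was called in the other direction in either tissue by edgeR or DESeq2, and 0 were at an unadjusted p under 0.05. FEZ, the gene not called in sorted cells, was at 3.78 ± 0.857 CPM in wild-type and 5.21 ± 6.15 in mutant ones (adjusted p = 0.74, edgeR). Its mutant sorted libraries were at 3.28, 0.254 and 12.1 CPM. The list's median edgeR log2 difference was -5.70 in sorted cells, against -0.05 over all genes tested, and 0.47 in whole roots, against 0.01. SMB, the NAC factor that drives lateral root cap maturation, fell from 30.8 ± 7.86 to 0.393 ± 0.566 CPM in sorted cells (log2 difference -5.91, adjusted p = 0.0018, edgeR) and was at 8.98 ± 0.767 and 12.0 ± 1.00 in whole roots (adjusted p = 0.12). BRN1, another NAC factor of the cap, fell from 62.4 ± 5.93 to 0.392 ± 0.124 in sorted cells (log2 difference -7.16, adjusted p = 9.1e-05, edgeR) and was at 8.93 ± 1.65 and 8.78 ± 1.14 in whole roots (adjusted p = 0.99). BFN1, a nuclease of dying cap cells, fell from 12.0 ± 2.60 to 0.222 ± 0.137 (log2 difference -5.71, adjusted p = 0.00066, edgeR), and RCPG, a cap polygalacturonase, from 3.88 ± 2.37 to 0.162 ± 0.220 (log2 difference -4.58, adjusted p = 0.018, edgeR), while in whole roots they were at 27.1 ± 15.0 and 37.0 ± 8.32, and at 10.03 ± 2.70 and 8.35 ± 1.04. The summed list was at 170 to 230 CPM in wild-type sorted cells, 3.17 to 17.6 in mutant sorted cells, 79.6 to 127 in wild-type whole roots and 140 to 173 in mutant whole roots, with no gene of it at 0 in all libraries of a group. The 2 members supply part of these sums and both whole-root calls. The other 5 genes summed to 93.8 to 128 CPM in wild-type and 1.02 to 13.0 in mutant sorted cells, where 4 of them fell, and to 47.8 to 68.5 and 57.8 to 76.7 in whole roots, where the genotypes overlapped and 0 were called. The part of the list in the members' values was not tested. The 2 whole-root calls were lost without wild-type replicate 3 or any mutant replicate, and in one fit of all 12 libraries, leaving 0 in each case, and 3 were made with wild-type replicate 1 left out. In sorted cells the 6 calls dropped to 4 when any 1 wild-type library was left out.

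**Figure D2:**
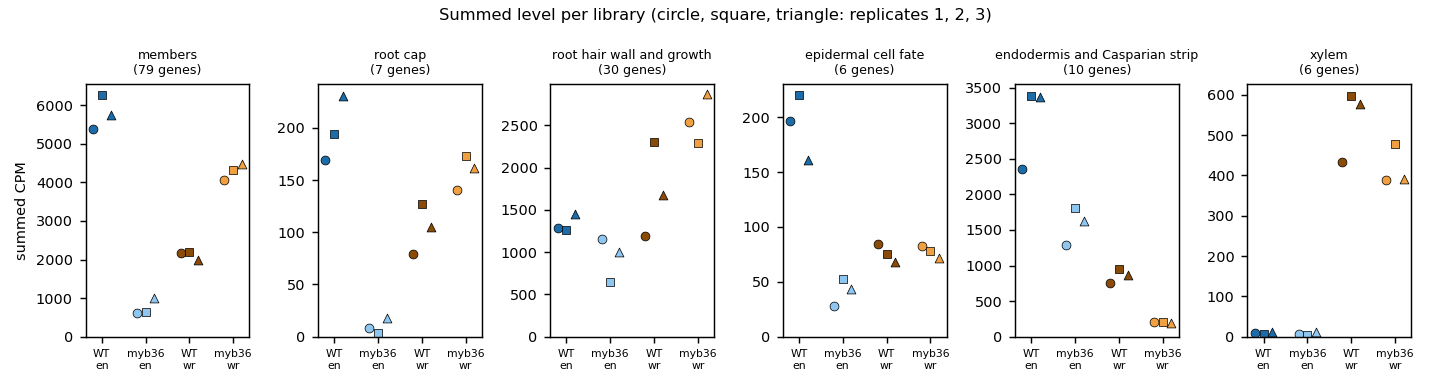
Summed CPM per library (y) of the 79 members and of 5 marker lists in the 4 groups (x), with circles, squares and triangles for replicates 1, 2 and 3. The root cap list holds 2 of the members and the root hair wall list 4, so those panels share genes with the first; the epidermal fate list, which holds none, is at 161 to 220 in wild-type and 28.2 to 52.1 in mutant sorted cells and overlaps between genotypes in whole roots.

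Wall loosening enzymes held several of the largest whole-root differences. XTHs cut and rejoin xyloglucan, the main hemicellulose tether of the primary wall. XTH5 (chr5:4474922-4477090, minus strand) was at 52.5, 54.5 and 50.3 CPM in wild-type and 11.2, 7.75 and 16.2 in mutant sorted cells, and at 16.0, 9.93 and 10.6 in wild-type and 43.1, 37.4 and 41.2 in mutant whole roots. XTH33 (chr1:3479066-3481041, minus strand) was at 9.87, 10.8 and 12.1 against 0.596, 5.84 and 3.16 in sorted cells, and at 8.27, 11.7 and 7.50 against 31.3, 29.1 and 26.4 in whole roots. Both had tight wild-type sorted libraries and a whole-root ratio of over 3, at 3.34 and 3.16. XTH33 was not called lower in sorted cells (edgeR), where its mutant libraries were spread.

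XTH12 (chr5:23300321-23301689, minus strand) was at 26.7, 28.2 and 40.2 against 0.298, 2.29 and 11.1 CPM in sorted cells, and at 17.8, 73.2 and 43.7 against 77.8, 103 and 118 in whole roots. XTH13 (chr5:23302787-23304095, minus strand), from which XTH12 is separated by 1 locus, was at 17.1, 19.9 and 20.7 against 1.42, 3.56 and 5.91 in sorted cells, and at 7.70, 26.2 and 17.6 against 38.5, 42.4 and 42.5 in whole roots. In both genes the 3 wild-type whole-root libraries were in the same order, replicate 1 lowest and replicate 2 highest. Neither was among the 67 called higher in whole roots. Of the 32 loci with the XTH domain in the table, 17 met the level limits and 4 were members. Outside the choice, XTH26, known from root hairs, rose in mutant whole roots from 7.92 ± 6.32 to 39.3 ± 7.55 CPM (log2 difference 2.34, adjusted p = 0.044, edgeR) but reached only 2.52 ± 2.26 CPM in wild-type sorted cells. TCH4, the touch-inducible XTH22, stood at 598 CPM in mutant and 231 in wild-type sorted cells, and XTH30 at 186 and 194.

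MAN7 (chr5:26538395-26541692, minus strand), an endo-beta-mannanase, was at 23.3, 28.2 and 25.7 CPM in wild-type sorted cells and 5.14, 4.83 and 12.8 in mutant ones, and at 9.77, 8.58 and 6.31 against 32.0, 32.7 and 28.0 in wild-type and mutant whole roots. Its 3.76-fold whole-root difference stood on 3 close libraries per genotype, but the gene overlaps AT5G66470 on the same strand, which counting could split. GH9C3, a glycosyl hydrolase of the endoglucanase family, went from 32.4 ± 5.33 to 4.24 ± 2.69 CPM in sorted cells and from 7.49 ± 0.917 to 18.3 ± 1.24 in whole roots. EXPA9, an expansin that loosens walls without cutting them, was the most abundant of the group, at 424 ± 5.49 and 64.9 ± 25.6 in sorted cells and 78.7 ± 5.57 and 128 ± 13.3 in whole roots. Summed, the 7 genes were at 596 ± 13.4 CPM in wild-type and 99.9 ± 44.0 in mutant sorted cells, and at 178 ± 30.9 and 388 ± 2.42 in whole roots.

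**Figure D3:**
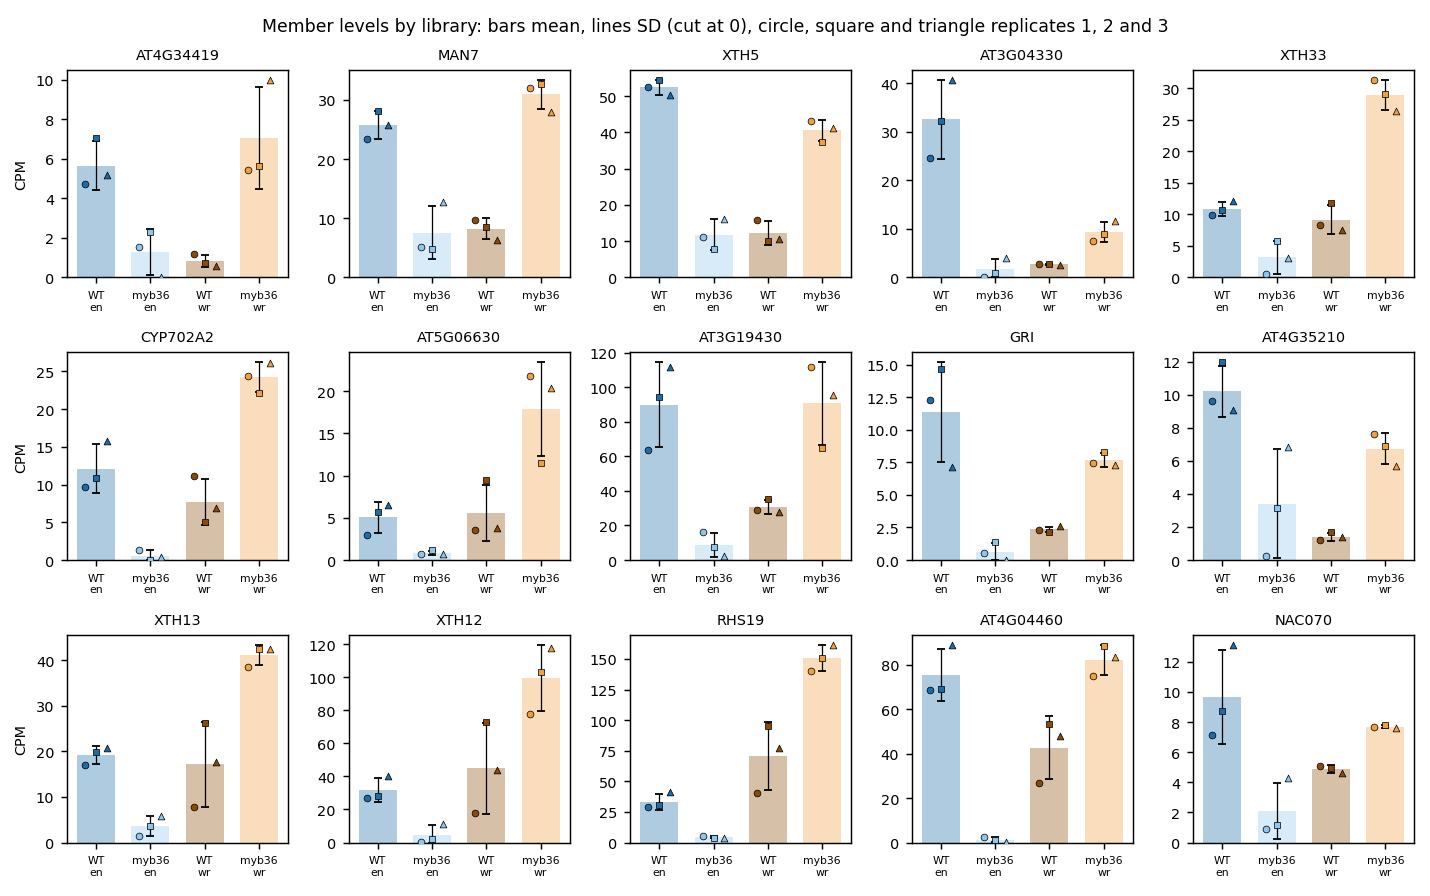
Level in CPM (y, each panel on its own scale from 0) of the 10 members with the largest score (the smaller of the 2 log2 differences) and the list members, in the 3 libraries of each group (x; en, sorted endodermis; wr, whole root), with means as bars and SD as lines. The mutant sorted libraries lie lowest in most panels, as in XTH5 at 7.75 to 16.2 against 50.3 to 54.5 in the wild type.

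Wall and surface proteins carried the highest counts of the set. AGP30, an arabinogalactan protein of the root, was at 593 ± 160 and 151 ± 103 CPM in wild-type and mutant sorted cells and at 332 ± 108 and 872 ± 118 in whole roots. In the authors' deposited table of pooled FPKM, a scale that corrects for gene length and library size, AGP30 was the highest member in all 4 groups, at 729, 168, 383 and 986 FPKM in the same order. The SKU5-similar proteins, relatives of multicopper oxidases, contributed sks16 (380 ± 41.9 to 13.3 ± 5.79 in sorted cells, 35.3 ± 4.51 to 88.0 ± 9.78 CPM in whole roots), sks15 (229 ± 32.7 to 16.7 ± 9.17 and 72.0 ± 11.8 to 152 ± 6.23) and SKS6 (359 ± 51.7 to 71.5 ± 48.8 and 245 ± 29.6 to 392 ± 14.3). DGR1, a wall protein of the DUF642 family, went from 172 ± 15.0 to 18.1 ± 6.49 and from 41.5 ± 10.1 to 104 ± 6.71. AT5G10130, of the Ole e 1 and extensin family, went from 226 ± 39.8 to 5.64 ± 1.79 CPM in sorted cells and from 21.8 ± 3.71 to 44.2 ± 6.57.

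AT5G06630 (EXT13, chr5:2036312-2037855, minus strand), an extensin-like structural protein, was at 3.00, 5.64 and 6.49 against 0.745, 1.14 and 0.687 CPM in sorted cells, and at 3.56, 9.42 and 3.77 against 21.8, 11.5 and 20.3 in whole roots. Wild-type replicate 2 and mutant replicate 2 of the whole root approached each other. Of the exon stretches of 50 bases of AT5G06630, 20.4% occurred more than once in the genome. Repeats within the gene were not told apart from copies at other loci, and any effect on its counts was not tested. RHS19 (AT5G67400, also PRX73, chr5:26894778-26896488, plus strand), a class III peroxidase of root hairs, was at 28.6, 30.5 and 41.0 against 5.21, 4.06 and 3.43 in sorted cells and at 40.5, 94.9 and 77.1 against 140, 151 and 162 in whole roots. AT3G49960, the other peroxidase, went from 19.7 ± 3.24 to 6.94 ± 4.33 and from 34.1 ± 17.1 to 84.3 ± 6.67. Both peroxidases were lower in wild-type sorted cells than in wild-type whole roots, at 0.471 and 0.579 of the whole-root mean.

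A list of 30 root hair wall and growth genes that holds 4 members (XTH12, XTH13, RHS19 and AT5G06630) was tested beside them. Over all genes tested, 12.9% fell and 15.6% rose in mutant sorted cells, and 3.25% rose in mutant whole roots. Of the list, 15 of the 27 genes tested fell and 1 rose in sorted cells, and 5 of 30 rose in whole roots (edgeR, adjusted p below 0.05). The choice bears on these counts, since 5 loci of the list, the 4 members and 1 that was left out, had met its limits, and they gave 4 of the 15 and 3 of the 5 calls. Of the other 25 genes, 11 of 22 tested fell and 1 rose in sorted cells, and LRX2 and XTH26 rose in whole roots, with median log2 differences of -1.90 and 0.63. DESeq2 also called 5 higher, and the count called lower in whole roots was 0 by both tools and 0 at an unadjusted p under 0.05. Its median edgeR log2 difference was -2.02 in sorted cells and 0.81 in whole roots. The summed list was at 1256 to 1446 CPM in wild-type and 647 to 1161 in mutant sorted cells, and at 1191 to 2305 and 2298 to 2874 in whole roots, with 1 gene at 0 throughout wild-type sorted cells (EXT18) and 3 throughout mutant ones (EXT18, PER1 and PER2). Its part in the members' values was not tested. PER7, a root peroxidase, fell in sorted cells from 84.6 ± 4.78 to 14.9 ± 5.74 CPM (log2 difference -2.47, adjusted p = 0.0015, edgeR) and was at 119 ± 39.6 and 176 ± 39.2 in whole roots (adjusted p = 0.23). CSLD3, a cellulose synthase-like protein of hair tips, was at 564 ± 72.0 and 419 ± 179.9 in sorted cells and 370.3 ± 11.5 and 374 ± 15.4 in whole roots, and RBOHC, the NADPH oxidase of hair growth, at 63.9 ± 7.02 and 109 ± 69.1 and at 103 ± 18.2 and 96.3 ± 5.78; neither passed in either tissue. PRX44, another peroxidase, rose in sorted cells, from 98.7 ± 30.0 to 226 ± 63.7 (log2 difference 1.23, adjusted p = 0.015, edgeR). The 5 whole-root calls grew to 17 when wild-type replicate 2 was left out, to 11 with no low-count filter and to 9 with the replicate number as a block, and dropped to 0 in one fit of all 12 libraries and to 1, 1, 3 and 1 when wild-type replicate 3 or mutant replicate 1, 2 or 3 was left out.

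Of 6 genes that decide hair or hairless fate of the epidermis, 5 fell in sorted cells (edgeR), 3 without wild-type sorted replicate 2. Over all genes tested, 12.9% fell in sorted cells. In whole roots 0 were called in either direction by edgeR or DESeq2, and 0 were at an unadjusted p under 0.05, while the difference between tissues was not tested. WER, a MYB factor of the hairless position, fell from 55.6 ± 12.1 to 1.13 ± 1.77 CPM (log2 difference -5.74, adjusted p = 0.0034, edgeR) and was at 13.1 ± 0.819 and 12.3 ± 0.222 in whole roots. Of 5 root hair regulators, 3 fell in sorted cells, against the same 12.9% of all genes tested. In whole roots 0 of these regulators were called by edgeR or DESeq2 or at an unadjusted p under 0.05. Their summed level was 71.6 to 101 CPM in wild-type and 8.94 to 30.1 in mutant sorted cells, and 102 to 153 and 116 to 131 in whole roots, and the part of these epidermal lists in the members' values was not tested. RHD6, which starts hair formation, fell from 44.9 ± 14.2 to 7.12 ± 6.57 in sorted cells (log2 difference -2.71, adjusted p = 0.031, edgeR). The 3 regulator calls were all lost when any 1 wild-type sorted library was left out. ZFP5, a zinc finger factor that promotes root hairs and is a member, went from 10.3 ± 1.60 to 0.266 ± 0.356 CPM in sorted cells and from 7.52 to 12.4 ± 1.70 in whole roots.

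Pectin genes numbered 6, and the most abundant are annotated to an inhibitor family. That family name does not settle whether each protein acts as an inhibitor or as an enzyme. UNE11 and AT5G04970, annotated as invertase/pectin methylesterase inhibitor family proteins, went from 165 ± 9.41 to 14.9 ± 3.71 and from 155 ± 26.8 to 26.8 ± 19.1 CPM in sorted cells, and from 23.1 ± 0.383 to 43.8 ± 1.61 and from 34.2 ± 6.12 to 63.5 ± 4.47 in whole roots. RHS14, a pectin lyase-like gene of root hairs, went from 15.9 ± 3.05 to 0.978 ± 0.585 in sorted cells and from 30.3 ± 14.6 to 47.3 ± 2.97 in whole roots. RGXT1, a rhamnogalacturonan xylosyltransferase, and the pectin lyase-like AT2G43870 and AT4G13210 completed the group.

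Secreted and defence-type proteins formed the largest functional group, with 12 members. AT3G04330 (chr3:1145723-1146516, plus strand), a Kunitz-type protease inhibitor, was at 24.7, 32.2 and 40.8 against 0.149, 1.02 and 3.98 CPM in sorted cells and at 2.77, 2.69 and 2.58 against 7.42, 9.03 and 11.7 in whole roots. GRI (chr1:19794723-19795544, minus strand), a secreted STIG1-family protein, was at 12.3, 14.7 and 7.17 against 0.521, 1.40 and 0 in sorted cells and at 2.33, 2.13 and 2.58 against 7.47, 8.28 and 7.28 in whole roots. In both the wild-type whole-root libraries were nearly equal, and the mutant means were 3.50 and 3.27 times theirs. AT2G43600, of the chitinase family, was at 24.3, 31.3 and 25.6 CPM in wild-type sorted cells and counted in only 1 of the 3 mutant sorted libraries, at 1.14. It was at 3.52, 2.18 and 2.72 against 7.57, 7.87 and 7.88 in whole roots. Its neighbour AT2G43590, also a chitinase, was instead higher in wild-type whole roots than in wild-type sorted cells, at 122 ± 22.0 against 47.0 ± 3.68 CPM. The mannose-binding lectins AT1G52070 and AT1G52060, again neighbours, were at 143 ± 50.7 and 108 ± 23.8 in wild-type sorted cells and at 13.4 ± 9.82 and 3.77 ± 2.68 in mutant ones.

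Oxidative and lipid enzymes numbered 8. CYP702A2 (chr4:8730499-8732851, minus strand), a cytochrome P450 from a list of root triterpene clusters, was at 9.62, 10.9 and 15.8 against 1.34, 0 and 0.412 CPM in sorted cells, and at 11.1, 5.06 and 6.93 against 24.4, 22.2 and 26.1 in whole roots. Of that list of 20, 10 of 14 tested genes fell in sorted cells and 4 of 18 rose and 2 fell in whole roots (edgeR). Over all genes tested, 12.9% fell in sorted cells, and 3.25% rose and 2.85% fell in whole roots. CYP702A2 and 1 locus that was left out had met the limits of the choice, and they gave 2 of the 10 and 2 of the 4 calls. In one fit of all 12 libraries 0 genes of the list were called higher in whole roots. The most abundant of its other genes, the thalianol pathway genes CYP705A5 (462 ± 78.8 to 26.02 ± 9.41 CPM), THAS1 (118 ± 35.9 to 17.5 ± 6.30) and CYP708A2 (58.9 ± 18.7 to 7.48 ± 3.95) and the marneral synthase gene MRN1 (74.3 ± 19.3 to 2.39 ± 1.87), fell in sorted cells and did not pass in whole roots. Replicates 1 to 3 of wild-type whole root gave 1540, 4630 and 3684 CPM for the summed list, and the mutant ones 2340 to 2713, and its part in the value of CYP702A2 was not tested. ALDH3F1, an aldehyde dehydrogenase, was at 47.7 ± 12.1 and 0.856 ± 0.779 in sorted cells and 7.00 ± 1.30 and 13.4 ± 3.00 in whole roots. CYP86A2, a fatty acid omega-hydroxylase of cutin synthesis, had the lowest wild-type ratio of sorted cells to whole root, 0.236. The desaturase AT3G02620 went from 9.96 ± 0.680 to 1.40 ± 2.21 in sorted cells and from 29.7 ± 6.97 to 77.0 ± 13.5 in whole roots. Of its exon stretches of 50 bases, 9.10% occurred more than once in the genome, within the gene or elsewhere.

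The member with the largest whole-root ratio was AT4G34419 (chr4:16456519-16457269, plus strand), a single-exon gene for an uncharacterized protein. It was at 4.73, 7.04 and 5.19 CPM in wild-type and 1.56, 2.29 and 0 in mutant sorted cells, and at 1.19, 0.742 and 0.573 in wild-type and 5.45, 5.65 and 10.004 in mutant whole roots. The whole-root ratio of 8.43 rested on low levels and on a spread mutant group. AT4G35210 (chr4:16751224-16752239, plus strand), with a DUF241 domain, was at 9.62, 12.0 and 9.08 against 0.223, 3.17 and 6.87 in sorted cells and at 1.19, 1.67 and 1.39 against 7.62, 6.91 and 5.72 in whole roots. Its mutant sorted libraries ranged widely, and replicate 3 came close to the wild type. Of 16 DUF241 loci in the table, 5 met the level limits and 4 were members; the fifth, AT1G76240, stood at 99.8 and 172 CPM in wild-type and mutant sorted cells and at 55.1 and 60.3 in whole roots.

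Regulators and cytoskeletal genes numbered 9, and their whole-root differences were among the smaller ones, from 0.60 to 0.86 on the log2 scale. IAA1, an auxin-induced repressor of auxin response, was at 117 ± 24.8 and 25.2 ± 19.9 CPM in sorted cells and 7.77 ± 0.826 and 13.9 ± 1.43 in whole roots. TRM10, of a family that recruits TONNEAU1 to microtubules, was at 130 ± 21.1 and 11.5 ± 9.26 in sorted cells. WAG2, a kinase of auxin transport, the transcription factor GATA9, the ubiquitin ligase PUB25, the microtubule-associated MDP40 and a histone H2B gene, AT3G53650, had falls of 3.16-fold to 3.78-fold. Metabolic genes numbered 8 and included UGE2, which interconverts UDP-glucose and UDP-galactose, and the phosphoglycerate mutase family gene AT2G17280 at 91.2 ± 10.9 and 13.5 ± 13.1 in sorted cells. The top 20 are the members with the largest score, the smaller of the 2 log2 differences of (mean CPM + 0.5) in size. The other members named were chosen after their values were seen. So were XTH26, LRX2, TCH4, XTH30, WER, RHD6, PHO1, SHR, SKOR, FEZ, CO2, AED3, ZAT12 and the WRKY genes.

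Wild-type sorted cells held the members at higher levels than wild-type whole roots in 67 of 79 cases, with all 3 sorted libraries above all 3 whole-root ones in 58. The median ratio was 2.83 and the range 0.236 to 15.0, the highest in IAA1. In the mutant, 77 of 79 were lower in sorted cells than in whole roots, with a median ratio of 0.186. IAA1 and AT3G53650 were the exceptions, at ratios of 1.81 and 1.22. These ratios share values with the choice, which favours high wild-type sorted and low wild-type whole-root levels, and they carry no test. The 12 members that were lower in wild-type sorted cells than in whole roots were AT5G06630, AT3G02620, AT3G49960, XTH12, RHS19, CYP86A2, AT1G21440, AT2G43590, MES1, AT5G19800, RHS14 and AT4G34880.

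Variation between replicates followed different libraries in different members. In mutant sorted cells, replicate 3 was the highest of the 3 in 39 members, replicate 1 in 22 and replicate 2 in 18, and 10 members had no count in at least 1 mutant sorted library. Wounding and rapid stress genes, which protoplasting can induce, were at 964 to 1291 CPM in wild-type and 1780 to 4324 in mutant sorted cells, where 4 of 6 rose, and at 105 to 115 and 129 to 159 CPM in whole roots, which were not protoplasted and where 3 of 5 tested rose (WRKY40, WRKY33 and WRKY53; edgeR). Their part in the members' values was not tested. In whole roots, wild-type replicate 1 stood below 0.6 of the mean of replicates 2 and 3 in 10 members, and above 1.2 of it in 25.

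Those 10 members were XTH12, MES1, XTH13, RHS14, AT3G49960, PPa3, RHS19, AT5G19800, PASPA3 and AT5G06630, at ratios from 0.304 to 0.540. The same library was low in the summed root hair wall list, at 1191 against 2305 and 1671 CPM. Without it the median whole-root ratio of the 10 was 1.66-fold in place of 2.03-fold, and 6 of them still reached 1.5-fold. The other 69 members went from a median of 1.82-fold to 1.90-fold. The 10 were picked for a low replicate 1, so the drop of their ratios without it follows from the pick. The contrast with the other 69 rests on the same pick, and nothing is read from it. Of the 10, MES1, RHS14, AT5G19800 and PPa3 dropped below the limit, to between 1.23-fold and 1.38-fold. WAG2 and AT5G16240, of the other 69, were also lost, which made 6 members lost without this library.

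**Figure D4:**
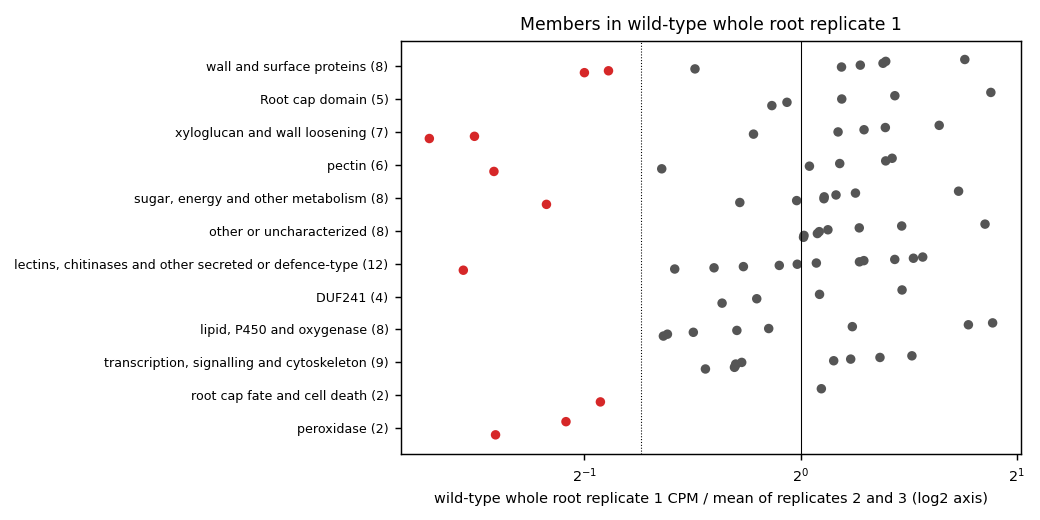
Level in wild-type whole-root replicate 1 over the mean of replicates 2 and 3 (x, log2 axis) for each of the 79 members (points), by functional group (y). The 10 red points below the dotted line at 0.6 lie between 0.304 and 0.540 and include both peroxidases.

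Position and annotation were shared in part. Members lay on chromosomes 1 to 5 in numbers of 14, 12, 9, 23 and 21. In 6 pairs, 12 members were direct neighbours, 5 of the pairs on the same strand: the lectins AT1G52060 and AT1G52070, the DUF241 genes AT2G17070 and AT2G17080 and AT4G35200 and AT4G35210, MES1 and sks16, the chitinases AT2G43590 and AT2G43600, and the Root cap domain genes AT5G60520 and AT5G60530. By RefSeq annotation 37 of the 79 proteins (46.8%) were placed in the endomembrane system, the wall or outside the cell, against 1247 of 12310 (10.1%) of the protein-coding loci that met both level limits. A gene on the opposite strand overlapped 10 members, among them GRI, RHS19, AT5G60520 and PASPA3; the libraries were strand-specific, but no source used here says whether the counting was by strand. The authors' deposited tables of pooled FPKM matched 73 members alone, and the 66 with a valid status in both tissues all had the same directions, with median levels of 29.4 and 5.83 FPKM in wild-type and mutant sorted cells and 10.6 and 21.0 in whole roots.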

How the data were processed

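RNA was measured in 12 libraries. The authors deposited raw counts per locus, the authors' normalized counts (a signal: counts divided by 1 size factor per library, as the values show) and pooled FPKM per genotype, per the file headers. The submitters' processing notes name TopHat2, SAMtools, Cufflinks, Cuffdiff and HTSeq with build TAIR10, without roles or versions. Counts of all 33602 loci were tested per tissue with edgeR 4.0.16 (R 4.3.3; quasi-likelihood test, TMM, filterByExpr, Benjamini-Hochberg over all genes tested, called at an adjusted p under 0.05), with no covariate, and DESeq2 1.42.0 was an alternative. The script was tested on simulated counts. CPM used the column sum. The groups came from the labels. Each p-value sets a genotype difference against the spread between these replicates, estimated with information shared across genes.

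The members and all gene lists were chosen with earlier results of these data known. Named genes are those of the lists and the 20 members with the largest score (the smaller of the log2 differences of mean CPM + 0.5 in the 2 tissues), and, of lists that hold a member, the 4 other genes most abundant in wild-type whole root. Functional groups were assigned by hand from RefSeq annotation. Depth limits precision in the mutant sorted libraries: 3 counts are worth up to 0.412 CPM there. No label says that the replicate number pairs samples, so the numbers were not taken to pair them. Same-numbered deviations correlated at 0.0242, 0.263 and 0.0102 in sorted cells and 0.282, 0.137 and -0.0553 in whole roots. Those with other numbers correlated at -0.260 to 0.221 in sorted cells and -0.323 to 0.186 in whole roots.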

Additional observations from a re-analysis of the deposited data

Results flagged for a closer look

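All libraries of 79 members went in opposite directions in the 2 tissues, lower in mutant sorted cells and higher in mutant whole roots. The choice of genes fixes these directions, and the difference between tissues was not tested.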

How the results depend on the processing

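Genes called lower in mutant sorted cells numbered 2368, and 4758 in one fit of all 12 libraries; leaving out 1 library gave 1002 to 3566, with 1172, 1002 and 1218 without wild-type replicate 1, 2 or 3 and the highest without mutant replicate 1. Genes called higher in mutant whole roots numbered 638, and 79 in the fit of all 12; leaving out 1 library gave 339 to 817, with 342 when wild-type replicate 3 was left out and 399, 367 and 339 when mutant replicate 1, 2 or 3 was. Members called lower in sorted cells numbered 62, and 43 to 70 with 1 library left out. Members called higher in whole roots numbered 67, 4 in the fit of all 12 libraries, and 36 to 71 with 1 left out. The fit of all 12 shares 1 estimate of spread across tissues; the cause of the changes was not tested. Fold limits of 0.33 and 2 kept 24 loci, and looser ones, with 0.5 on the fall, gave 177, including all 79 members. Leaving out 1 library gave 76 to 127 loci, the highest without wild-type whole-root replicate 2, of which 76 were members. TMM scaling gave 82 loci (77 shared) and the authors' normalized counts 81 (78 shared). With the replicate number as a block, 2245 and 794 genes were called, and 68 and 73 members. Alternatives for the lists and for calls among the members were chosen after seeing the data. Depth was lowest in mutant sorted cells, where a difference under a few counts was not detectable.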
